A study of Mus musculus with 12 samples.

Results

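Cells handle cholesterol along a route on which apolipoproteins carry lipid between cells, lipoprotein lipase releases fatty acids from lipoproteins, lysosomal proteins free the cholesterol that is taken up, an esterifying enzyme stores it, and ATP-binding cassette (ABC) transporters export it. The liver X receptors (LXRs) are nuclear receptors that bind oxidized cholesterol (oxysterols) and switch on export genes. In the brain, astrocytes are the main source of apolipoprotein E, and microglia, the resident macrophages, also make it and are known to raise it when they meet amyloid plaques. The expression of 10 genes of this route, *Apoe*, *Apoc1*, *Lpl*, *Abca1*, *Abcg1*, *Nr1h3*, *Ch25h*, *Soat1*, *Npc2* and *Lipa*, was examined by bulk mRNA sequencing of cortical microglia. They were chosen by name for their place on the route, with earlier results of these data known, out of 55487 genes in the count table. All 10 were among the 15425 genes with enough counts to be tested.

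The 12 libraries came from male *App* NL-G-F mice, which carry an *App* knock-in with the Swedish, Iberian and Arctic mutations, and from wild-type (WT) mice. Mice of each strain received intravenous PBS or rh Bri2 BRICHOS R221E, a recombinant chaperone domain that hinders amyloid formation, at 10 mg/kg in 24 injections over 12 weeks. Treatment began at 9 months of age and was followed by 4 weeks without injections, so that the groups show what remained after the last dose. The 4 groups are called WT-veh and App-veh, which received PBS, and WT-BRICHOS and App-BRICHOS, which received the chaperone domain, and each has 3 mice with 1 library per mouse. The knock-in is carried by all cells of the mouse and not by microglia alone, and CD11b, the surface protein used to isolate the cells, is also present on other myeloid cells.

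Libraries held 12433402 to 17889654 counts, so that 3 counts, taken as the smallest detectable level, equal 0.168 to 0.241 CPM, the counts of a gene scaled to the size of its library. Adjusted p-values are those of edgeR's quasi-likelihood test over all tested genes, with a call at an adjusted p-value under 0.05. Microglial markers were high in every library, with a sum over 10 markers of 25620 to 31290 CPM, although 7 of them were lower and 2 higher in App-veh than WT-veh mice, *Cx3cr1* at 3468 against 4692 CPM, *P2ry12* at 1318 against 2742 CPM and *Tmem119* at 749 against 1717 CPM among the lower. Other cells were also present. The sum of 8 oligodendrocyte markers was 9684 to 16950 CPM in WT-veh and 4159 to 15640 CPM in WT-BRICHOS libraries. In App-veh libraries it was 3229 to 5651 CPM, and in App-BRICHOS libraries 4509 to 6198 CPM. The sum of 7 choroid plexus markers was 874 to 4013 CPM in WT-veh and 3321 to 6863 CPM in WT-BRICHOS libraries. In App-veh libraries it was 652 to 2011 CPM, and in App-BRICHOS libraries 656 to 993 CPM. The sum of 11 astrocyte markers was 462 to 644 CPM in WT-veh, 460 to 893 CPM in WT-BRICHOS, 1479 to 4735 CPM in App-veh and 682 to 1981 CPM in App-BRICHOS libraries, and 9 of the 11 were called higher in App-veh than WT-veh mice. The sum of 8 border macrophage markers was 424 to 503 CPM in WT-veh and 556 to 683 CPM in WT-BRICHOS libraries, and 184 to 255 CPM in the App libraries. In such bulk samples, a gene lowered in each cell and a smaller share of the cells that express it cannot be told apart.

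*Abca1* and *Apoe* are textbook LXR targets, and their promoters are shown because the transporter and the apolipoprotein moved in opposite directions between the strains. Both sequences are the 250 bases before the transcription start, for *Apoe* the most upstream of its listed starts, in the RefSeq annotation of GRCm38.p6, read 5′ to 3′ on the minus strand, at chr4:53159896-53160145 for *Abca1* and at chr7:19699189-19699438 for *Apoe*. Capitals mark the motif matches.
Abca1: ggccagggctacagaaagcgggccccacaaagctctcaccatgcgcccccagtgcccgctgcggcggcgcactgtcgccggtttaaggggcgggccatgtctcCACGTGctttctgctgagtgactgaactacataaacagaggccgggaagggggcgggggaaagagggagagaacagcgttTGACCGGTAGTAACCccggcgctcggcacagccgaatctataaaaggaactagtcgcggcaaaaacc
Apoe: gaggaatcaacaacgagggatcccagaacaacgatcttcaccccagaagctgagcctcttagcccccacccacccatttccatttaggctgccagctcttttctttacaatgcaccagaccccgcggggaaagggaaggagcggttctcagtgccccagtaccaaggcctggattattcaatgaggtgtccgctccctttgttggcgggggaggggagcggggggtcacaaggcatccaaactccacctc
The DR4 repeat bound by LXR (AGGTCA, 4 bases and AGGTCA again) was searched on both strands and was found in none of the 7 genes of the route with a promoter entry, and in 5 of 32851 promoters in all (0.0152%). A looser form (GGTNA, 5 bases and GGTNA), chosen after the first search and including every strict match, was present in 204 promoters (0.621%). It lies in the *Abca1* promoter from 67 to 53 bases before the start. The *Abca1* promoter also holds CACGTG, the E-box core of the motif shared by lysosomal genes, from 147 to 142 bases before the start, as do 6.02% of all promoters. None of the 3 motifs was found in the 250 bases before the start of *Apoe*, *Ch25h*, *Soat1*, *Npc2*, *Lipa* or *Nr1h3*. *Lpl*, *Apoc1* and *Abcg1* had no entry.

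*Apoe*, *Apoc1* and *Lpl* encode the secreted members of the route. *Apoe* (ENSMUSG00000002985, chromosome 7, 19696109 to 19699188, minus strand, GRCm38) was counted at 1698, 1673 and 1955 CPM in the WT-veh libraries and at 18830, 19905 and 21324 CPM in the App-veh libraries. The lowest App library was far above the highest WT library. The log2 fold change was 3.50 (SE 0.106), or 11.3-fold (95% interval 9.60 to 13.3), with an adjusted p-value of 2.21e-09.

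Lipoprotein lipase cuts the triglycerides of lipoproteins and is a marker of microglia around plaques. *Lpl* (ENSMUSG00000015568, chromosome 8, 68880491 to 68907448, plus strand) was at 29.9, 32.4 and 39.1 CPM in WT-veh libraries against 1162, 1203 and 1215 CPM in App-veh libraries. This was the largest change among the 10 genes by fold, 35.3 times (log2 fold change 5.14, SE 0.107, 95% interval 4.91 to 5.38, adjusted p-value 2.54e-10), and the spread within each group was small beside it. *Apoc1* (ENSMUSG00000040564), a small apolipoprotein that inhibits lipoprotein lipase, was at 0.479, 0.652 and 0.894 CPM in WT-veh libraries and at 2.91, 2.63 and 2.59 CPM in App-veh libraries. These values rest on 7 to 12 and 35 to 45 counts per library. The groups did not overlap, and the transcript rose 4.00 times (95% interval 2.52 to 6.36, adjusted p-value 0.00036) but stayed a minor one.

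**Figure D1:**
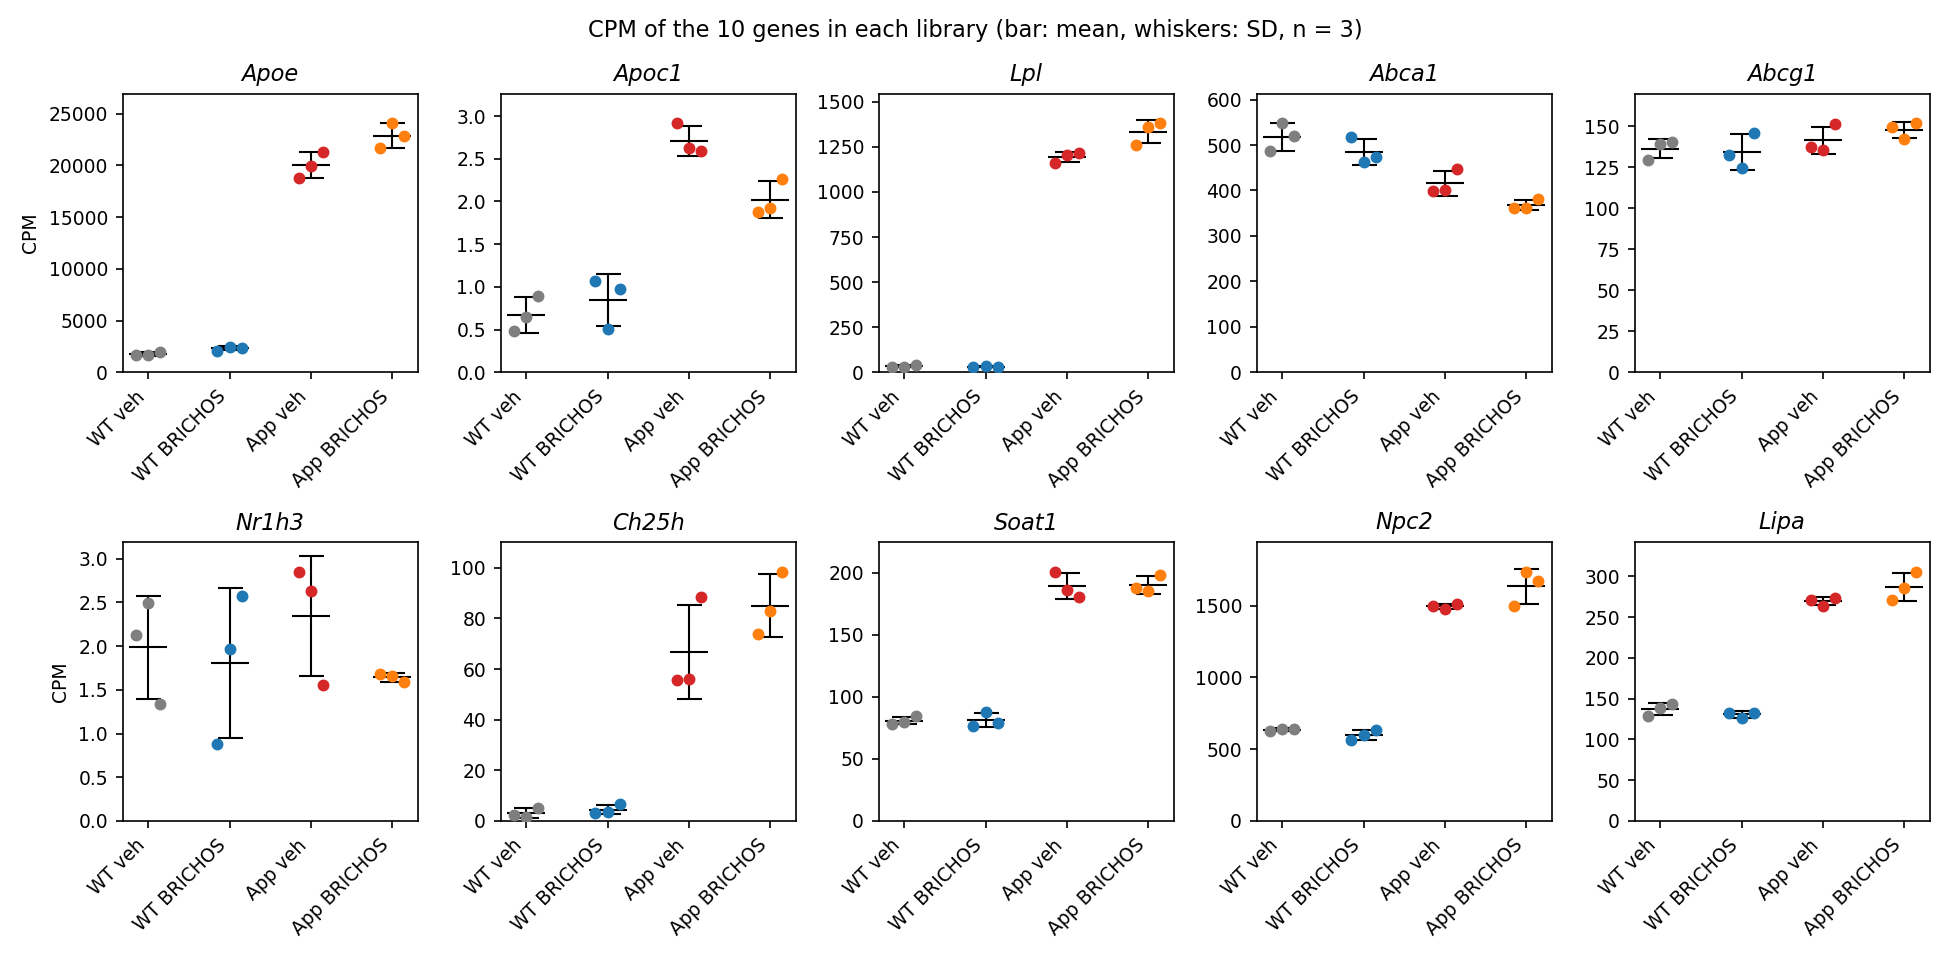
Level of each of the 10 genes in the 12 libraries, in CPM on linear axes that differ between panels, with 3 libraries (points) per group, the mean (bar) and the SD (whiskers). *Apoe* lies at 1673 to 1955 CPM in WT-veh and at 18830 to 21324 CPM in App-veh libraries, *Abca1* is the gene with lower levels in App mice, and *Nr1h3* overlaps between all groups.

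The efflux genes did not follow *Apoe*. *Abca1* (ENSMUSG00000015243, chromosome 4, 53030787 to 53159895, minus strand), the transporter that loads cholesterol and phospholipid onto lipid-poor apolipoproteins, was at 486, 548 and 519 CPM in WT-veh libraries and at 398, 402 and 448 CPM in App-veh libraries. All App libraries were below all WT libraries. *Abca1* fell by 0.32 on the log2 scale (SE 0.0658, 95% interval -0.46 to -0.17, adjusted p-value 0.00295). The call was lost with the astrocyte marker score as a covariate (log2 fold change -0.16, adjusted p-value 0.341) and without the App-veh libraries 1 and 2, which hold the highest astrocyte markers (log2 fold change -0.20, adjusted p-value 0.202). The sums of border macrophage, endothelial, mural, oligodendrocyte, neuron, B cell and microglial markers were also lower in App-veh than WT-veh libraries without overlap. Endothelial markers were at 471 to 635 against 657 to 737 CPM, with 7 of 8 called lower. Oligodendrocyte markers were at 3229 to 5651 against 9684 to 16950 CPM, with 2 of 8 called lower. Sums of astrocyte markers were higher without overlap, and so were those of oligodendrocyte precursors, of which 1 of 5 markers was called higher. Of the precursor markers *Cspg4* went from 10.1 to 100 CPM. The means of *Vcan* and *Tnr* were also higher, and those of *Olig1* and *Pdgfra* were lower. The part of these cells in the lower *Abca1* was not tested.

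*Abcg1* (ENSMUSG00000024030, chromosome 17, 31057675 to 31117988, plus strand), which exports cholesterol to lipoproteins that already carry lipid, was at 130, 139 and 141 CPM in WT-veh and at 138, 136 and 151 CPM in App-veh libraries. The groups overlapped, and the 95% interval of the log2 difference ran from -0.09 to 0.20 (adjusted p-value 0.571). A change larger than about 1.14 times lay outside that interval. *Nr1h3* (ENSMUSG00000002108, chromosome 2, 91184061 to 91202834, minus strand), which encodes LXRα, was a rare transcript, with 1.34 to 2.49 CPM in WT-veh and 1.56 to 2.85 CPM in App-veh libraries. Its counts of 14 to 45 per library left a wide 95% interval of -0.57 to 1.04 on the log2 scale (adjusted p-value 0.643), so that neither a rise nor a fall was detectable at this depth. Its partner *Nr1h2*, which encodes LXRβ and is named here for that reason after its values were seen, was more abundant, at 83.7 ± 2.66 CPM in WT-veh and 90.7 ± 0.675 CPM in App-veh libraries (SD, n = 3), and was not called (log2 fold change 0.12, adjusted p-value 0.164).

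*Ch25h* encodes the cholesterol hydroxylase that makes an oxysterol, and *Soat1* the enzyme that esterifies cholesterol for storage in lipid droplets. *Ch25h* (ENSMUSG00000050370, chromosome 19, 34473778 to 34475164, minus strand) was at 2.47, 1.60 and 5.22 CPM in WT-veh and at 55.8, 56.1 and 88.3 CPM in App-veh libraries. In both groups the third library was the highest, and the groups were far apart. The gene rose by 4.46 on the log2 scale (SE 0.374, 95% interval of the fold 12.5 to 38.9, adjusted p-value 3.37e-06). *Soat1* (ENSMUSG00000026600, chromosome 1, 156424525 to 156474331, minus strand) was at 78.5, 79.8 and 84.4 CPM against 201, 186 and 181 CPM in the same order of groups, and rose 2.34 times (log2 fold change 1.23, SE 0.0622, adjusted p-value 5.91e-08) without overlap.

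*Npc2* encodes the lysosomal protein that takes up free cholesterol and hands it on for export from the lysosome, and *Lipa* the acid lipase that frees cholesterol from its esters there. *Npc2* (ENSMUSG00000021242, chromosome 12, 84754562 to 84773152, minus strand) was at 626, 642 and 644 CPM in WT-veh and at 1496, 1480 and 1515 CPM in App-veh libraries, a rise of 2.35 times (log2 fold change 1.23, SE 0.0656, adjusted p-value 8.89e-08). *Lipa* (ENSMUSG00000024781, chromosome 19, 34492318 to 34527474, minus strand) was at 129, 138 and 144 CPM against 271, 264 and 274 CPM, a rise of 1.97 times (log2 fold change 0.98, SE 0.0562, adjusted p-value 1.59e-07). Replicates of both genes lay close together, and no library of one strain reached the other strain. *Npc1*, the membrane partner of *Npc2*, named here after its values were seen, was at 274 ± 8.35 and 293 ± 10.3 CPM (SD, n = 3) and was not called (log2 fold change 0.10, adjusted p-value 0.382).

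Of the 10 genes, 7 were called higher in App-veh mice, where 20.1% of all tested genes were, and 1 was called lower, where 16.9% were. The groups of libraries did not overlap for 8 of the 10, against 50.9% of all tested genes. The median log2 fold change was 1.23 for the 10 genes and -0.02 for all tested genes. Since the 10 genes were chosen with earlier results of these data known, these comparisons are no test of the route. With the astrocyte marker score as a covariate, the 7 genes that rose were still called, with a log2 fold change of 3.58 for *Apoe* (adjusted p-value 4.18e-07), 5.24 for *Lpl*, 4.82 for *Ch25h* and 1.04 for *Lipa*.

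**Figure D2:**
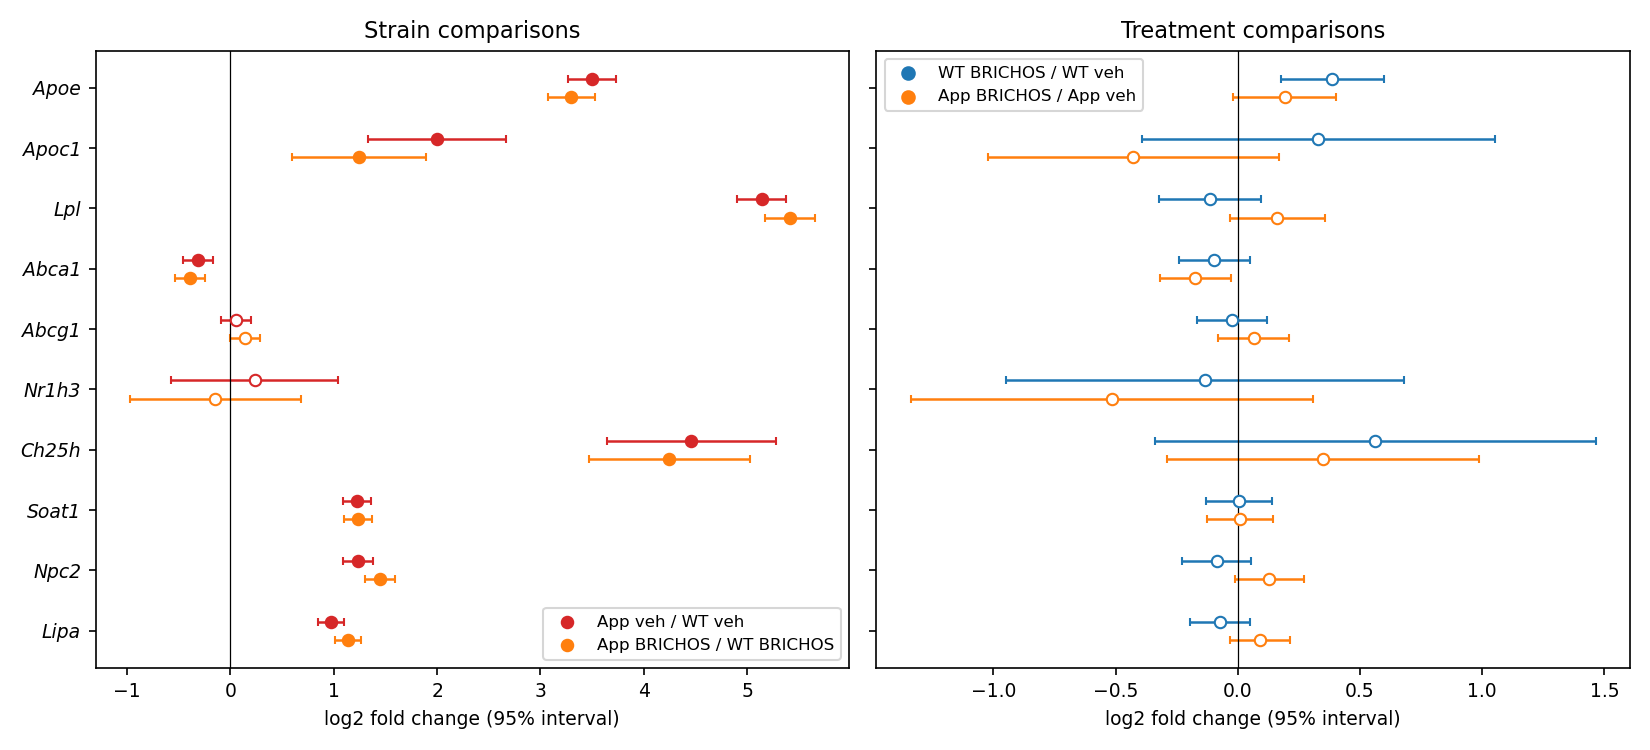
Log2 fold changes of the 10 genes with 95% intervals, for App against WT mice (left) and rh Bri2 BRICHOS R221E against veh (right), with filled points for an adjusted p-value under 0.05. Between the strains 7 genes are called above 0 and *Abca1* is called below it under both treatments, and none of the treatment differences is called.

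The BRICHOS groups show the strain difference in other mice. Again 7 of the 10 genes were called higher in App than WT mice and *Abca1* lower, where 20.8% of all tested genes were higher and 21.8% lower. *Apoe* was at 2101, 2454 and 2411 CPM in WT-BRICHOS and at 21680, 24062 and 22870 CPM in App-BRICHOS libraries (log2 fold change 3.30, SE 0.105, adjusted p-value 2.19e-09). *Lpl* was at 30.7, 34.3 and 28.7 CPM against 1263, 1361 and 1380 CPM, a rise of 42.7 times (adjusted p-value 1.6e-10). Both pairs of groups were widely separated.

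*Abca1* was at 517, 464 and 473 CPM in WT and at 362, 363 and 381 CPM in App libraries, without overlap, and fell by 0.39 on the log2 scale (SE 0.0658, adjusted p-value 0.000591). With the astrocyte marker score as a covariate the log2 fold change was -0.38 (adjusted p-value 0.000599). The astrocyte marker sums of both BRICHOS groups overlapped, but other markers were lower in App-BRICHOS libraries without overlap of their sums. Called lower were 7 of 8 endothelial, 7 of 7 mural, 7 of 7 choroid plexus, 7 of 8 border macrophage and 5 of 5 ependymal markers. Sums of fibroblast, neuron and blood cell markers (neutrophil, monocyte and B cell) were lower without overlap as well. So was the T cell sum, which was mostly *Cd4*, the 1 of its 5 genes that was tested. The part of these cells in the lower *Abca1* was not tested. The log2 fold changes of the others were 4.25 for *Ch25h*, 1.45 for *Npc2*, 1.24 for *Apoc1*, 1.23 for *Soat1* and 1.14 for *Lipa*, with adjusted p-values of 2.44e-08 (*Npc2*) to 0.00563 (*Apoc1*). *Abcg1* (log2 fold change 0.14, adjusted p-value 0.113) and *Nr1h3* (log2 fold change -0.15, adjusted p-value 0.783) were again not called.

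Levels of different genes can be compared only per transcript length, for which TPM, which divides the counts by the length of the gene's exons before scaling, was computed. In WT-veh libraries the TPM of *Apoe* was 3034 ± 300 (SD, n = 3), followed by *Npc2* at 428 ± 8.10, *Abca1* at 182 ± 6.54, *Lipa* at 73.8 ± 3.69, *Abcg1* at 68.3 ± 2.43 and *Soat1* at 30.2 ± 1.40. Below these, *Lpl* (11.8 ± 1.69), *Ch25h* (8.19 ± 5.05), *Apoc1* (3.31 ± 1.02) and *Nr1h3* (2.87 ± 0.812) each overlapped with the next in TPM. In App-veh libraries *Apoe* reached 27627 ± 1434 TPM, with *Npc2* at 813 ± 15.2, *Lpl* at 336 ± 3.41, *Ch25h* at 142 ± 38.7, *Abca1* at 118 ± 7.14 and *Lipa* at 117 ± 3.19.

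*Lpl* thus moved from the seventh to the third place among the 10 genes and *Abca1* from the third to the fifth. The TPM of *Ch25h*, *Abca1* and *Lipa* overlapped in App-veh libraries, and their order depends on the length used, since *Lipa* came before *Ch25h* and *Abca1* with the longest transcript in place of all exons. *Abcg1* (57.2 ± 3.23 TPM) and *Soat1* (57.1 ± 3.96 TPM) could not be ordered there, *Apoc1* followed at 10.8 ± 0.862 TPM and *Nr1h3* at 2.76 ± 0.835 TPM. Among all tested genes *Apoe* ranked 35 to 42 by TPM in WT-veh libraries, 26 to 27 in WT-BRICHOS libraries and 2 in each of the App libraries. *Lpl* moved from rank 7856 to 8831 in WT-veh to rank 364 to 384 in App-veh libraries. Since *Apoe* alone took 1.79 to 1.99% of all counts in App-veh libraries, against 0.175 to 0.211% in WT-veh libraries, it is itself part of what the library size holds.

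Neighbouring genes were read to see whether the changes stopped at single genes. *Apoc1* lies 3448 bases from *Apoe* on the same strand, and *Apoc4* beyond it was counted 0 to 2 times in each WT-veh and 33 to 152 times in each App-veh library, which gives no fold change that can be relied on. *Apoc2*, the next beyond it, had at most 1 count in any library, and *Clptm1*, farther out on that side, was 0.29 higher on the log2 scale (adjusted p-value 0.000287). On the other side of *Apoe*, *Tomm40* (log2 fold change -0.01, adjusted p-value 0.926) and *Nectin2* (log2 fold change -0.09, adjusted p-value 0.501) were not called.

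**Figure D3:**
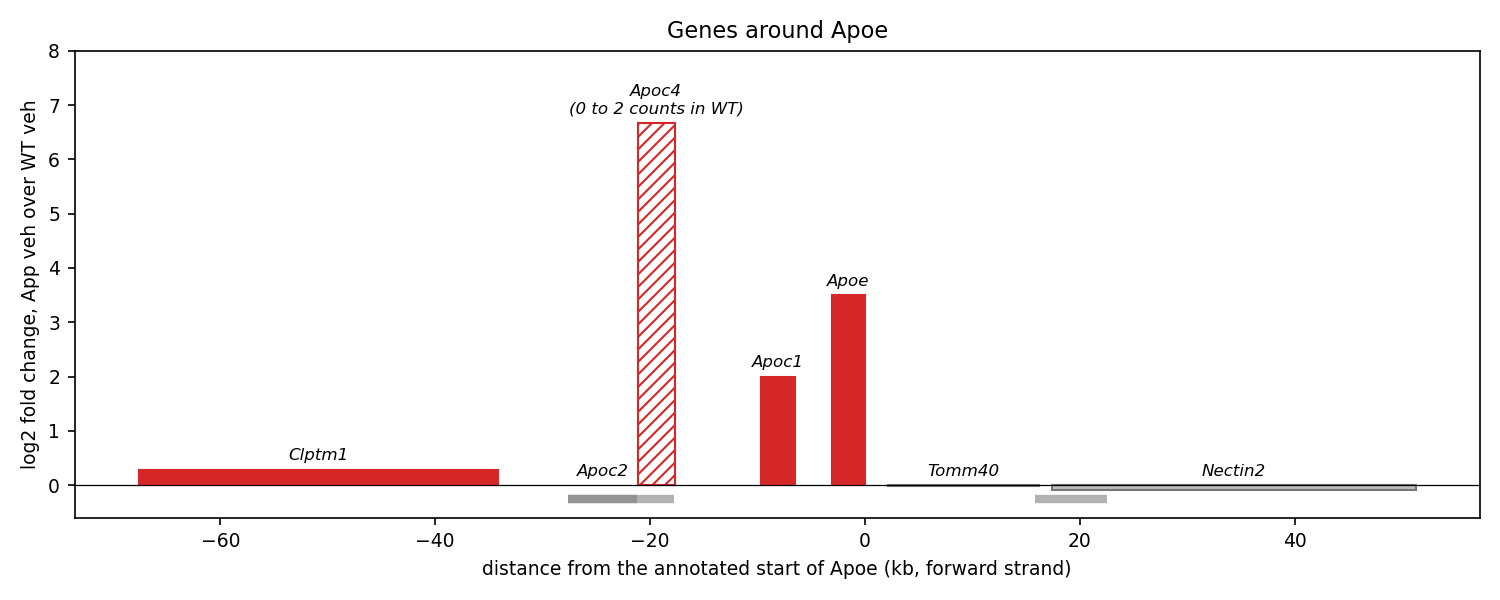
Log2 fold change between App-veh and WT-veh mice of the tested genes around *Apoe*, drawn at their distance in kb from the *Apoe* start, with called genes in red, others in grey, *Apoc4* hatched because it rests on 0 to 2 counts in WT libraries, and grey strips below 0 for genes that were not tested. *Apoe*, *Apoc1* and *Apoc4* stand above *Tomm40* and *Nectin2*, which lie near 0.

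*Ch25h* and *Lipa* are 17153 bases apart on chromosome 19. The start of *Ch25h* overlaps *Gm26902*, a transcript on the other strand that was counted 1 to 5 times in WT-veh and 100 to 113 times in App-veh libraries (log2 fold change 4.95, SE 0.451, adjusted p-value 6.55e-06). The libraries are stranded, but whether the counting used the strand is not given in the sources used here, so reads in the shared stretch may have been assigned to neither or either gene. *Ifit2*, beyond *Lipa*, was not called (log2 fold change 0.56, adjusted p-value 0.131). *Soat1*, *Abcg1* and *Nr1h3* also overlap small annotated transcripts.

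Treatment was compared within each strain. In WT mice none of the 10 genes was called after adjustment, nor was any of the tested genes (0.0%). At an unadjusted p-value under 0.05 there was 1 of the 10, against 11.4% of all tested genes, and it was *Apoe*. *Apoe* was at 1698, 1673 and 1955 CPM in WT-veh and at 2101, 2454 and 2411 CPM in WT-BRICHOS libraries, so that all treated libraries lay above all veh libraries. It was the only one of the 10 genes whose groups did not overlap, against 17.5% of all tested genes.

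The fitted difference of *Apoe* was 1.31 times (95% interval 1.13 to 1.51, log2 fold change 0.39, unadjusted p-value 0.0019, adjusted p-value 0.239). DESeq2's Wald test gave an adjusted p-value of 0.00903 for it, and 80 genes called in all. Over the other alternatives, DESeq2 included, the adjusted p-value of *Apoe* ranged from 0.00903 to 0.393, and with 1 library left out from 0.0803 to 0.664. The summed border macrophage markers moved with it, from 424 to 503 CPM in WT-veh to 556 to 683 CPM in WT-BRICHOS libraries (5 of 8 markers higher at an unadjusted p-value under 0.05, none lower). Summed markers of ependymal cells (11.6 to 14.9 against 21.2 to 39.6 CPM) and fibroblasts (8.76 to 11.3 against 17.8 to 25.3 CPM) did so as well. So did mural markers (206 to 231 against 234 to 317 CPM, 1 of 7 higher at an unadjusted p-value under 0.05). Those of the choroid plexus, 874 to 4013 against 3321 to 6863 CPM, overlapped. The T cell sum was also higher (3.91 to 6.11 against 7.38 to 7.90 CPM), but it was mostly *Cd4*, the 1 of its 5 genes that was tested. *Cd4* was at 4.95 ± 1.31 and 7.44 ± 0.358 CPM (SD, n = 3). *Cd3e*, *Cd3d*, *Cd3g* and *Cd8a* were at most 0.297 CPM in these libraries. Summed microglial markers were lower in the treated libraries, at 28490 to 31290 against 27070 to 28420 CPM, without overlap. Their part in the *Apoe* difference was not tested.

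The other 9 genes had intervals that included 0 in WT mice. The 95% intervals of the log2 difference were -0.32 to 0.10 for *Lpl*, -0.24 to 0.05 for *Abca1*, -0.17 to 0.12 for *Abcg1*, -0.13 to 0.14 for *Soat1*, -0.23 to 0.05 for *Npc2* and -0.19 to 0.05 for *Lipa*. The rarer genes left wider ones, -0.34 to 1.46 for *Ch25h*, -0.39 to 1.05 for *Apoc1* and -0.95 to 0.68 for *Nr1h3*, so that a change of 2.76 times in *Ch25h* could have gone unseen. The median log2 fold change of the 10 genes was -0.05, and that of all tested genes -0.00.

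In App mice rh Bri2 BRICHOS R221E again left none of the 10 genes past the adjusted threshold, which 0.00648% of all tested genes passed (1 gene, *Cald1*, named after its value was seen). DESeq2 called none of the 10 either. *Abca1* was the 1 gene of the 10 with an unadjusted p-value under 0.05, against 10.8% of all tested genes. It was at 398, 402 and 448 CPM in App-veh and at 362, 363 and 381 CPM in App-BRICHOS libraries (log2 fold change -0.17, 95% interval -0.32 to -0.03, unadjusted p-value 0.0225, adjusted p-value 0.369). The groups did not overlap for *Abca1*, *Apoc1*, *Apoe* and *Lpl*, 4 of the 10 genes, against 13.5% of all tested genes, with *Abca1* and *Apoc1* at the lower and *Apoe* and *Lpl* at the higher level in treated mice.

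*Apoe* was at 18830, 19905 and 21324 CPM in veh-treated and at 21680, 24062 and 22870 CPM in App-BRICHOS libraries. The lowest treated library was only slightly above the highest veh library, and the difference was 1.14 times (95% interval 0.987 to 1.32, unadjusted p-value 0.0705, adjusted p-value 0.517). *Lpl* differed by 0.16 on the log2 scale (95% interval -0.03 to 0.36, adjusted p-value 0.571) and *Apoc1* by -0.43 (95% interval -1.02 to 0.17, adjusted p-value 0.635).

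The astrocyte markers moved against *Apoe* in these mice, with all 11 lower in treated App libraries at an unadjusted p-value under 0.05 and none after adjustment. Ordered by the astrocyte marker sum, the 6 App libraries had 24062 CPM of *Apoe* at 682 CPM of markers, 22870 at 1302, 21324 at 1479, 21680 at 1981, 19905 at 4232 and 18830 at 4735. The library richest in astrocyte markers, of the App-veh group, was the lowest in *Apoe*, and the poorest, of the App-BRICHOS group, was the highest. The order is therefore not separate from treatment. The astrocyte sums of both groups overlapped. Endothelial sums (471 to 635 CPM in App-veh against 394 to 454 CPM in App-BRICHOS libraries, 7 of 8 markers lower at an unadjusted p-value under 0.05) and mural sums (126 to 189 against 78.0 to 124 CPM, 4 of 7 markers lower) did not overlap, and none of these markers was called after adjustment. Their part in the differences of *Apoe* and *Abca1* was not tested. With the astrocyte marker score as a covariate, the log2 difference of *Apoe* was 0.14 and that of *Abca1* -0.27, both with an adjusted p-value of 1.0. The median log2 fold change of the 10 genes was 0.08, and that of all tested genes 0.01.

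**Figure D4:**
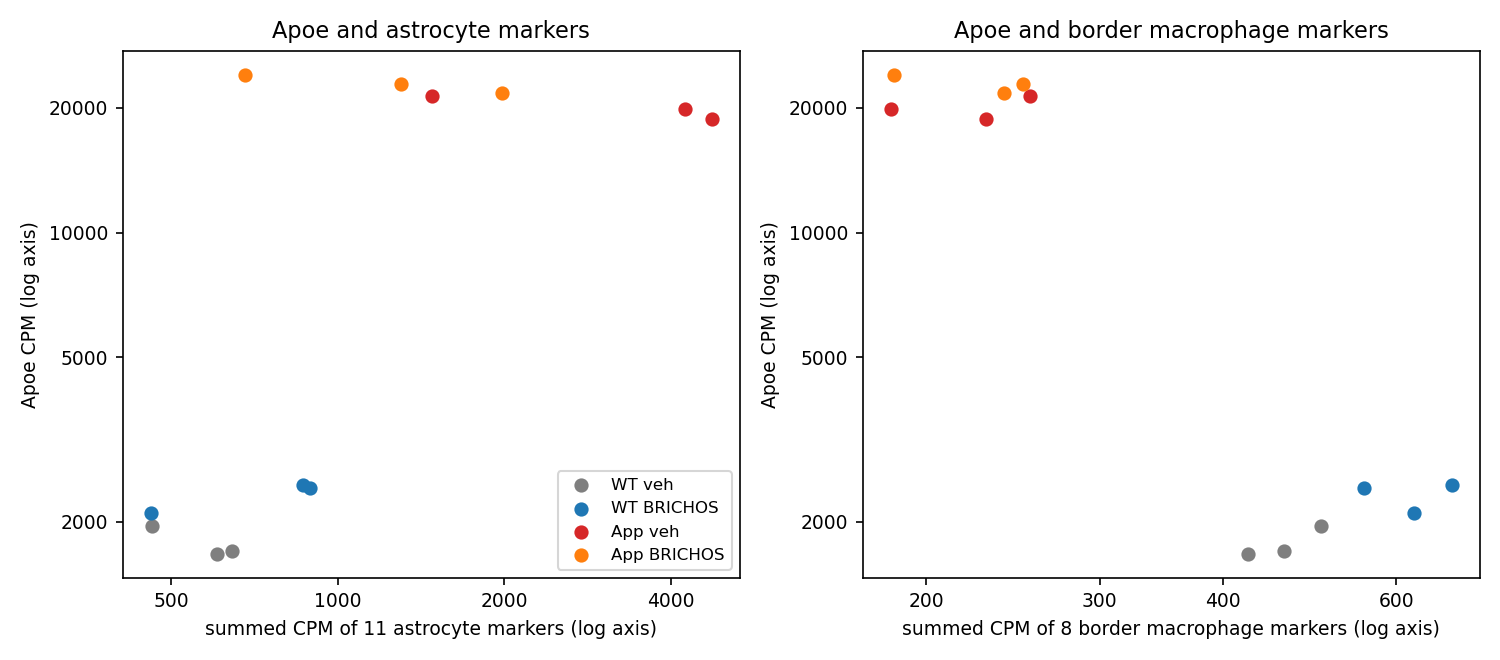
*Apoe* level in CPM against the summed CPM of 11 astrocyte markers (left) and 8 border macrophage markers (right) in the 12 libraries, both axes on a log scale, coloured by group. The 6 App libraries lie at 18830 to 24062 CPM of *Apoe* over astrocyte sums of 682 to 4735 CPM, and the 3 WT-BRICHOS libraries lie above the WT-veh libraries in both *Apoe* and border macrophage markers.

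For the remaining genes in App mice the 95% intervals of the log2 difference were -0.08 to 0.21 for *Abcg1*, -0.12 to 0.14 for *Soat1*, -0.01 to 0.27 for *Npc2*, -0.03 to 0.21 for *Lipa*, -0.29 to 0.99 for *Ch25h* and -1.34 to 0.31 for *Nr1h3*. *Ch25h* was at 55.8, 56.1 and 88.3 CPM in App-veh and at 73.9, 82.8 and 98.3 CPM in App-BRICHOS libraries, and these ranges overlapped. *Soat1*, at 181 to 201 and 185 to 199 CPM, had nearly the same level in both.

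The treatment effects in App and WT mice were also compared with each other, as the difference of both log2 fold changes. None of the 10 genes was called, and 0.00648% of all tested genes were. DESeq2 called none of the 10 either. At an unadjusted p-value under 0.05 there was 1 of the 10, against 14.8% of all tested genes. This was *Npc2*, whose effect was 0.22 higher on the log2 scale in App than in WT mice (95% interval 0.02 to 0.42, unadjusted p-value 0.0374, adjusted p-value 0.31). The difference of the effects was -0.20 for *Apoe* (95% interval -0.49 to 0.10, adjusted p-value 0.536), so that the effects in WT and App mice were not shown to differ, and 0.27 for *Lpl* (95% interval -0.01 to 0.56, adjusted p-value 0.355).

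Other genes of the route were followed in 9 lists with 152 genes, of which 127 were tested. Between App-veh and WT mice 53 of them rose and 17 fell, with a median log2 fold change of 0.21, where 20.1% of all tested genes rose and 16.9% fell. The counts of the single lists are to be read against these same shares, and counts with the astrocyte marker score as a covariate are given where they were lower. No list was tested as a whole. Of 15 other apolipoproteins 7 were tested and 3 were called, all higher, *Apoc4*, *Clu* and *Apobr*, and the median of the list was -0.12. With the covariate 1 was called higher. *Clu*, a chaperone-like apolipoprotein made mainly by astrocytes, was at 148 ± 36.7 and 616 ± 266 CPM (SD, n = 3; log2 fold change 2.06, adjusted p-value 0.00265), and its difference was 0.17 with the astrocyte marker score as a covariate (adjusted p-value 0.785). *Apobr*, a receptor for triglyceride-rich lipoproteins, was 0.29 higher on the log2 scale (adjusted p-value 0.0149), a call lost in 1 of the 12 fits with 1 library left out and with the covariate (adjusted p-value 0.386).

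Of 17 tested lipoprotein receptors and their partners 8 rose and 3 fell, and with the covariate 5 rose and 1 fell. *Lrpap1*, a chaperone of lipoprotein receptors, went from 110 ± 6.01 to 369 ± 63.0 CPM (SD, n = 3; log2 fold change 1.75, adjusted p-value 1.86e-06). *Olr1*, a receptor for oxidized lipoprotein, was called with a log2 fold change of 1.65 (adjusted p-value 0.0069) but not with the covariate (adjusted p-value 0.128). *Trem2*, a lipid-binding receptor of microglia, rose by 1.75 on the log2 scale between the BRICHOS groups, from 843 ± 62.0 to 2836 ± 173 CPM (SD, n = 3; adjusted p-value 2.00e-08). *Trem2* was also called higher between the veh groups (log2 fold change 1.46, adjusted p-value 8.30e-08). *Trem2* and *Lrpap1*, like *Apoe*, were higher in both comparisons between the strains.

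Of 13 other tested transporters of the ABCA and ABCG families 2 rose and 3 fell, shares near those of all tested genes, and the median log2 fold change was -0.14. With the covariate none rose and 1 fell. *Abcg3* fell by 1.53 (from 17.6 ± 2.13 to 6.10 ± 1.36 CPM, SD, n = 3, adjusted p-value 2.99e-05). *Abca13* (log2 fold change -0.87, adjusted p-value 0.0294) and *Abca5* (log2 fold change 0.63, adjusted p-value 0.021) were called, but each lost its call in 3 of the 12 fits with 1 library left out and with the astrocyte marker score as a covariate.

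Of 16 tested partners and further targets of LXR 6 rose and 4 fell, with a median log2 fold change of 0.09, and with the covariate 3 rose and 2 fell. *Rxrg*, a retinoid X receptor of the family that pairs with LXR, rose by 2.25 (from 3.92 ± 0.425 to 18.7 ± 0.739 CPM, SD, n = 3, adjusted p-value 1.4e-07). *Smpdl3a*, a phosphodiesterase induced by LXR in macrophages, rose by 1.13 (adjusted p-value 2.54e-05). *Scd1*, a fatty acid desaturase, fell by 1.16 (adjusted p-value 0.0063), a call that was lost with the covariate (adjusted p-value 0.312). Between the BRICHOS groups *Pltp*, the phospholipid transfer protein, fell by 1.30 (adjusted p-value 1.36e-06) and *Lpcat3*, which remodels membrane phospholipids, by 0.49 (adjusted p-value 1.69e-05).

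Of 17 tested genes of lysosomal and intracellular cholesterol transfer 5 rose and 2 fell, and with the covariate 4 rose and 1 fell. *Stard4*, a cytosolic sterol carrier, rose by 1.29 (from 11.6 ± 0.833 to 28.2 ± 4.31 CPM, SD, n = 3, adjusted p-value 1.57e-05), and *Lamp1*, a lysosomal membrane protein, by 0.74 (from 1227 ± 19.7 to 2044 ± 25.9 CPM, adjusted p-value 3.52e-07). *Tmem97*, an endoplasmic reticulum protein that binds NPC1, rose by 0.79 (adjusted p-value 0.000218). Of 17 tested genes of esterification and lipid droplets 8 rose and 2 fell, with a median log2 fold change of 0.55, and with the covariate 5 rose and 2 fell. *Nceh1*, a cholesterol ester hydrolase that opposes *Soat1*, rose by 2.64 (from 22.4 ± 3.06 to 139 ± 10.2 CPM, adjusted p-value 9.61e-09). The fatty acid carriers *Fabp5* (from 11.7 ± 4.02 to 217 ± 8.81 CPM, log2 fold change 4.21, adjusted p-value 3.83e-08) and *Fabp3* (from 0.716 ± 0.557 to 18.5 ± 0.565 CPM, log2 fold change 4.71, adjusted p-value 7.16e-07) had the largest changes of that list. The median of the esterification list was 0.06 with the covariate and 0.00 without the App-veh libraries 1 and 2, while *Nceh1*, *Fabp5* and *Fabp3* were still called with the covariate.

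Among 9 tested partners of lipoprotein lipase and related lipases 4 rose and 1 fell. *Lmf2* (log2 fold change 0.30, adjusted p-value 0.00428), related to a lipase maturation factor, and *Sel1l* (log2 fold change 0.26, adjusted p-value 0.00516), which helps the lipase to leave the endoplasmic reticulum, rose slightly beside the 35.3-fold rise of *Lpl*. With the covariate no gene of this list was called.

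Among 6 tested enzymes and the receptor of oxysterols and bile acid precursors 1 rose and 2 fell, and with the covariate none rose and 1 fell. *Cyp27a1*, which makes another oxysterol, fell by 0.37 (adjusted p-value 0.000418), whereas *Ch25h* rose. *Cyp7b1*, which breaks oxysterols down (log2 fold change 1.73, adjusted p-value 0.0373), had a log2 fold change of -0.42 with the covariate, and *Cyp39a1* (log2 fold change -1.01, adjusted p-value 0.0171) lost its call there. Of the 12 fits with 1 library left out, 4 did not call *Cyp7b1* and 2 did not call *Cyp39a1*.

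The longest list was that of cholesterol synthesis and its regulator SREBP2. Of 25 genes, all tested, 16 rose and none fell, with a median log2 fold change of 0.62. *Cyp51* went from 21.8 ± 0.552 to 55.9 ± 3.89 CPM (SD, n = 3; log2 fold change 1.36, adjusted p-value 4.94e-06). *Sqle*, an early enzyme of the sterol branch, rose by 1.15 (adjusted p-value 0.000892) but was not called with the covariate (adjusted p-value 0.178), and *Insig1*, a sterol sensor, rose by 1.13 (adjusted p-value 0.000568). With the covariate 10 rose and none fell, and the median was 0.61, and without the App-veh libraries 1 and 2 there were 8 that rose and none that fell. Between the BRICHOS groups 18 of the 25 rose and none fell, among them *Srebf2* by 0.88 (adjusted p-value 1.88e-06) and *Dhcr7*, which acts at the last step of synthesis, by 1.03 (adjusted p-value 1.11e-06).

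The BRICHOS groups were compared over the same lists, with 55 of the 127 genes higher and 18 lower in App than WT mice, where 20.8% of all tested genes were higher and 21.8% lower. Genes named from this comparison were *Abca4*, a retinoid transporter, which fell by 2.21 (adjusted p-value 0.00795) from 18.5 to 36.7 CPM in WT-BRICHOS to 4.03 to 7.02 CPM in App-BRICHOS libraries, and *Abca3*, a phospholipid transporter, which rose by 0.32 (adjusted p-value 0.00174). All 7 choroid plexus markers were called lower there too, with summed levels of 3321 to 6863 against 656 to 993 CPM, and their part in its fall was not tested. The lysosomal membrane protein *Lamp2* rose by 0.81 (adjusted p-value 1.56e-07), the lipase maturation factor *Lmf1* by 0.46 (adjusted p-value 0.000158), and *Furin*, a protease that cuts lipoprotein lipase, by 0.34 (adjusted p-value 0.00498). *Lrpap1*, *Trem2*, *Abcg3*, *Abca3*, *Rxrg*, *Lamp1*, *Stard4*, *Nceh1*, *Fabp5*, *Fabp3*, *Cyp27a1* and *Cyp51*, among others, were called in the same direction in both comparisons. Between the veh groups *Abca3* rose by 0.21 on the log2 scale (adjusted p-value 0.0221). *Clu* was at 244 CPM in both BRICHOS groups and was not called (adjusted p-value 0.997).

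**Figure D5:**
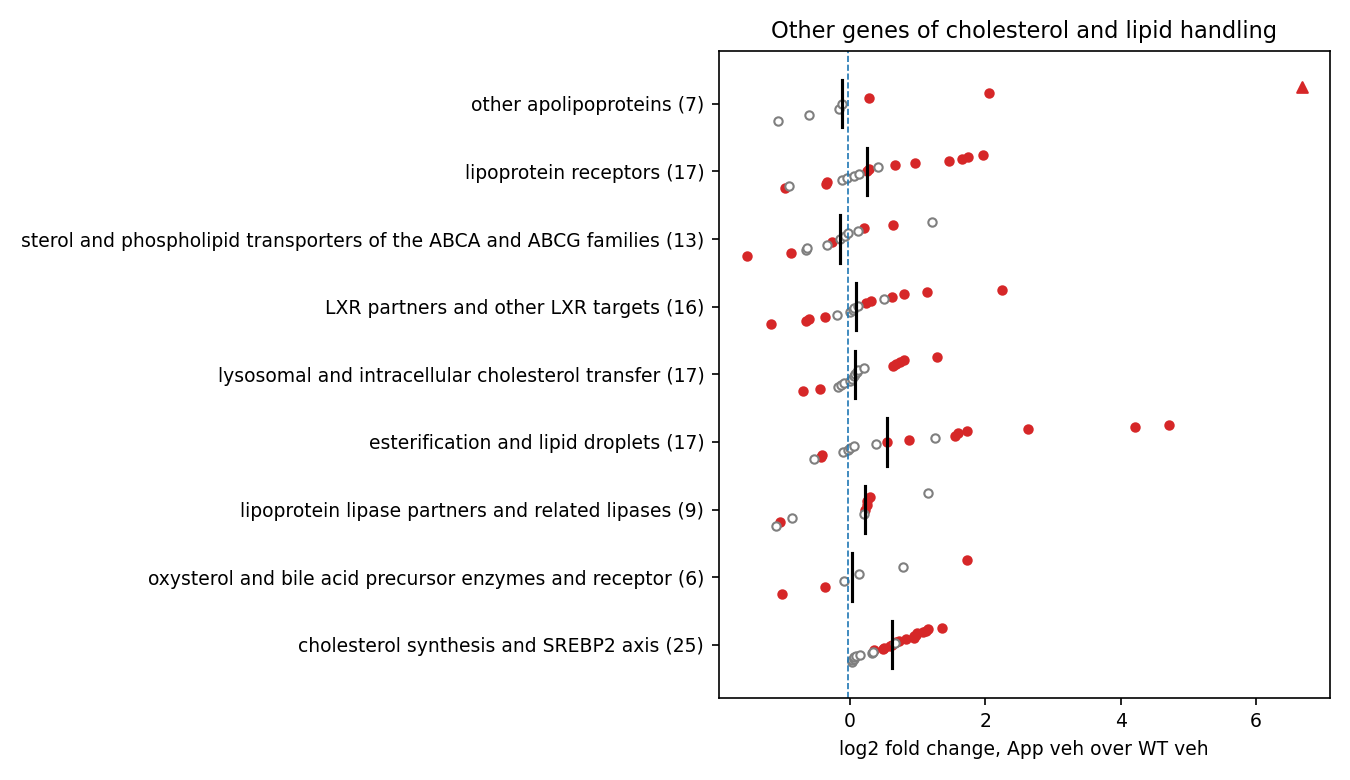
Log2 fold changes between App-veh and WT-veh mice of the tested genes of 9 lists (points; filled red for an adjusted p-value under 0.05, open grey for others), with the list median (black bar), the median of all tested genes (blue dashed line) and a triangle for *Apoc4*, whose fitted value rests on 0 to 2 counts in WT libraries. The list of cholesterol synthesis has 16 of 25 genes called, all above 0, and the list of ABC transporters lies on both sides of 0.

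Treatment with rh Bri2 BRICHOS R221E left none of the 127 list genes past the adjusted threshold in either strain, nor did the difference between the strains. At an unadjusted p-value under 0.05 there were 2 higher and 12 lower in App mice, 9 higher and 6 lower in WT mice, and 7 higher and 11 lower for the difference between the strains, or 14, 15 and 18 of the 127 genes, and the shares of all tested genes were 10.8%, 11.4% and 14.8%. DESeq2 called 2 of them lower in App mice, *Lrp8*, a receptor for apolipoprotein E (log2 fold change -0.91, adjusted p-value 0.000119), and *Pltp* (log2 fold change -0.59, adjusted p-value 0.000119), for which edgeR gave an adjusted p-value of 0.144 each. It called none in WT mice and 3 for the difference between the strains, *Lrp8* and *Pltp* lower and *Stard3* higher. These 3 genes were named after their values were seen.

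Genes with a pattern like that of *Apoe* were sought by the Pearson correlation of log2 CPM with all other tested genes over the 12 libraries, which share the strain difference. The 5 highest were *Axl* (r = 0.999), *Kcnj2* (r = 0.999), *Igf1* (r = 0.999), *Rab7b* (r = 0.998) and *Myo5a* (r = 0.998). *Axl*, a receptor for dying cells, went from 68.6 to 763 CPM and *Igf1*, a growth factor, from 13.3 to 255 CPM between the veh groups, so that the rise of *Apoe* was shared in size by *Axl* (log2 fold change 3.48). After the group means were subtracted the 5 highest were others, *B3gnt8* (r = 0.945), *Adrm1* (r = 0.935), *Reep1* (r = 0.934), *Hpse* (r = 0.928) and *Ap5s1* (r = 0.925), of which *Hpse* alone was called between the strains (from 4.12 to 131 CPM, adjusted p-value 1.31e-07). Within groups *Apoe* varied most closely with *Ch25h* (r = 0.757), *Lpl* (r = 0.645) and *Npc2* (r = 0.635) among the 10 genes and not with *Abca1* (r = -0.08) or *Apoc1* (r = -0.06). These values describe 12 libraries that share their depth and composition. The 5 genes of each search are the highest of all tested genes other than the 10. Whether their r exceeds what so wide a search gives for unrelated genes was not tested.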

How the data were processed

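Raw counts per gene, without normalization, were deposited by the authors, who used GRCm38, STAR and featureCounts (FastQC 0.11.8, STAR 2.6.1d and featureCounts 1.5.1 per the submitters' processing notes). Whether strand was counted is not given in the sources used here. Titles give the group of each library, and no column of the table was left out. Genes were named with the GENCODE annotation of GRCm38, which matched 55227 of 55487 genes, and 26314 genes had no count in any library. Libraries of a group differed by more than sampling noise (chi-square per degree of freedom 5.86 to 34.6).

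Genes were kept by filterByExpr of edgeR 4.0.16 (R 4.3.3) with a minimum count of 10. With TMM factors, 1 quasi-likelihood model of all 12 libraries and 4 group means was tested by glmQLFTest, with Benjamini-Hochberg adjustment over 15425 genes. The authors used DESeq2. Here DESeq2 1.42.0 was an alternative to edgeR. The SE is the absolute log2 fold change divided by the square root of F, and 95% intervals use the total degrees of freedom of the test. These are the residual ones plus the prior ones that edgeR estimates from all tested genes. TPM was computed from the counts and the summed exon length, without TMM. Marker scores are mean log2 CPM with a prior count of 2. Correlations, tables and figures used Python 3.11.15 with pandas 2.3.3, numpy 2.4.6, scipy 1.17.1 and matplotlib 3.10.9. The fits were tested on simulated data with known changes.

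The 10 genes and all lists were chosen with earlier results of these data known. Named beside them were, per list, the 3 called genes with the largest change between the veh groups, up to 3 per list by p-value in the other comparisons, and the 5 genes most like *Apoe* by each measure. Some genes that this rule takes are not reported here. Alternatives were DESeq2's Wald test and size factors, a fit of the compared groups alone, no filter or at least 10 counts in every library, a replicate block, an astrocyte marker covariate, both of these, and each library left out in turn. Library sizes without TMM factors and the omission of the App-veh libraries 1 and 2 were added after seeing the data. Intervals cover the spread between 3 mice per group only.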

Additional observations from a re-analysis of the deposited data

How the results depend on the processing

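Of 485 values of the 10 genes recomputed under 10 alternatives, 460 kept their direction and their side of the threshold, as did 580 of 600 with 1 library left out. Between the strains 8 of the 10 genes were called with each library left out in the veh groups (8 to 8), and 8 to 9 in the BRICHOS groups, where *Abcg1* passed (adjusted p-value 0.0323) without the WT-BRICHOS library 3. The treatments and the difference between the strains gave 0 to 0 of the 10. *Apoc1* could not be tested with at least 10 counts in every library.

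The number of genes called between the veh groups, 5710, became 2192 with the astrocyte marker score as a covariate, 2339 with the score and the replicate block, and 2617 without the App-veh libraries 1 and 2, and was 4449 to 5981 with 1 library left out. Under rh Bri2 BRICHOS R221E it was 5461 to 6693 with 1 library left out. For treatment in App mice, with 1 gene called, DESeq2 called 119 genes and the fit without a filter 25, and 0 were called with only the compared groups, with the block, with the score, with both, without TMM, and without the 2 libraries; with 1 library left out it was 0 to 162, the latter without the App-veh library 3. For treatment in WT mice, with 0 genes called, DESeq2 called 80 (1 of the 10 genes, *Apoe*), the fit without a filter 12, the score with the block 2 and the fit without TMM 1, with 0 to 5 when 1 library was left out. For the difference between the strains, with 1 gene called, these were 244 with DESeq2, 107 without a filter, and 0 with the score, with the score and block, and without the 2 libraries, and 0 to 88 with 1 library left out, 88 without the App-veh library 3. The cause of these changes was not tested.

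Reversed directions mostly concerned values near 0 or rare genes, and none of those of the 10 genes was called. *Soat1* for treatment in WT mice was -0.012 without a filter, -0.025 with the score and -0.028 with score and block, its difference between the strains was -0.022 with at least 10 counts and -0.075 without TMM, and its value for treatment in App mice was -0.039 without TMM. *Nr1h3* was -0.93, -1.01 and -0.35 between the veh groups with the score, with score and block, and without the 2 libraries, and in that order 0.27, 0.32 and 0.092 for treatment in App mice and 0.74, 0.82 and 0.23 for the difference. *Cyp7b1* between the strains was -0.42 with the score and -0.35 with score and block. *Abcg1* without TMM was -0.14 between the veh groups, 0.0086 for treatment in WT mice and -0.13 between the BRICHOS groups, where leaving out TMM moved the median of all genes by -0.19 in the first and -0.27 in the last. Without the 2 libraries *Abcg1* was -0.018 and *Ch25h* -0.042 for treatment in App mice, where the main fit gave 0.065 and 0.35. With 1 library left out, *Soat1* ranged from -0.021 to 0.071 for treatment in App mice, from -0.056 to 0.038 in WT mice and from -0.028 to 0.066 for the difference, *Abcg1* from -0.087 to 0.026 and *Nr1h3* from -0.47 to 0.18 for treatment in WT mice, *Nr1h3* from -0.46 to 0.19 between the BRICHOS groups, and *Ch25h* from -0.79 to 0.17 for the difference.

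Equally numbered libraries come from different mice, and the correlation of their deviations from the group means was -0.0148 to 0.227. These values do not decide whether equal numbers mark a shared batch. With the replicate block 5991 genes were called between the veh groups and 6822 between the BRICHOS groups, with 8 and 9 of the 10 genes, the ninth being *Abcg1* (adjusted p-value 0.0436). Counts of 7 to 45 for *Apoc1* and 14 to 45 for *Nr1h3* limit what can be seen of these genes.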
